A study of Mus musculus with 4 samples.

Results

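The cytosolic heat shock and J-domain proteins of mouse pancreas were followed here as RNA: 91 of 55291 listed gene symbols. They were taken by name alone, as the Hspa, Hspb, Hsp90a, Hspd1, Hspe1, Hsph1, Dnaja, Dnajb, Dnajc and Bag1 to Bag6 genes without Hspa5, Dnajb9, Dnajb11 and Dnajc3, which serve the endoplasmic reticulum (ER). Of the 91, 75 were annotated as protein-coding and the other 16 were processed pseudogenes or symbols outside the annotation, 12 of them copies of Hspd1 or Hspe1. The label "cytosolic" did not hold for every member: Hspa9, Hspd1, Hspe1 and Dnaja3 encode mitochondrial chaperones, and Dnajc1, Dnajc10, Dnajb12, Dnajb14 and Dnajc18 encode proteins of the ER or its membrane. Hspbp1 and Hspbap1 entered through their names only, since they encode partners of heat shock proteins. These exceptions are examples and not a full list.

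RNA of pancreas was sequenced in 4 libraries, 2 per group. Every mouse carried Pdx1-Cre, a recombinase driven by a promoter of pancreatic progenitors and later of islets, so deletion is restricted to cells of that lineage. Control mice were poh1f/+ and lose 1 copy of poh1 (now Psmd14, the deubiquitinase of the proteasome lid) in those cells, and knockout mice were poh1f/f. The labels give no age, and they do not say whether a library is 1 animal or a pool, so p-values measure only the spread between these libraries, which may be technical.

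Hsp70 proteins bind unfolded segments of client proteins and release them on exchange of nucleotide. J-domain proteins bring the clients and start ATP hydrolysis, while Bag and Hsp110 proteins exchange the nucleotide. Hsp90 takes over partly folded clients, small heat shock proteins hold clients without ATP, and the Hspd1 and Hspe1 chaperonin folds proteins inside mitochondria. Heat shock factor 1 raises many of these genes when unfolded protein builds up, and inhibition of the proteasome is a classic trigger in cultured cells.

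The DNA word read by heat shock factors is an inverted repeat of GAA, looked for because the study removes a proteasome subunit. It is shown only for some of the members discussed below that hold it. Words of 2 units (GAANNTTC and TTCNNGAA, each the same on both strands) and of 3 units (GAA, TTC, GAA or TTC, GAA, TTC, with any 2 bases between units, each the other strand of the other) were searched; a 3-unit word always holds 2-unit words. The search covered the 250 bases before each start in the RefSeq promoter table, build GRCm38.p6. Of the members, 60 matched the table by symbol. These have 78 windows, of which 4 (5.13%) hold a 3-unit word, against 0.466% of all 32851 windows, and 16 (20.5%) hold a 2-unit word, against 12.8%. By gene, 3 and 14 of the 60 hold one in at least 1 window. No word was found in the windows of Dnajb1, Bag2, Bag3, Hspb8, Hspa2, Hspa12a, Dnajc6 and Dnajc9. Hspa8, Hspa9, Hsp90aa1, Hsp90ab1, Bag4 and Dnajc18 did not match the table, so their promoters were not searched. Several genes have more than 1 window, and the Hspd1 and Hspe1 windows overlap, so they hold the same element. The Dnajb6 windows also overlap each other and hold the same 3-unit word, and the Hsph1 windows share their 2-unit word. The counts of windows therefore count some stretches more than once. A match is a description of these letters and not a measured binding site. Capitals mark the word, and each stretch of 30 bases is read 5′ to 3′ on the strand of its gene.
Hspd1 (chr1:55088053-55088082, minus strand): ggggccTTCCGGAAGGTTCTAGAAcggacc
Hspe1 (the same bases, plus strand): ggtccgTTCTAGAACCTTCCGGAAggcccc
Dnajb6 (chr5:29735844-29735873, plus strand): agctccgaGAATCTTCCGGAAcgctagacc
Hspa1a (chr17:34972242-34972271, minus strand): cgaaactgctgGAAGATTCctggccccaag
Hspa1b (chr17:34959324-34959353, minus strand): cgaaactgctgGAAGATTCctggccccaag
Hspb1 (chr5:135887811-135887840, plus strand): agatgggggcaGAACCTTCctggccccgcc
Hsph1 (chr5:149636351-149636380, minus strand): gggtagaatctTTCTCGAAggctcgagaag
Dnaja1 (chr4:40722333-40722362, plus strand): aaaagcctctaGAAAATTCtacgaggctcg
The Hspd1 and Hspe1 stretch holds 4 units in a row. It lies inside the annotated span of Hspd1 and before the start of Hspe1, which is read in the opposite direction; another Hspd1 start in the table has 0 words in its window. The Hspa1a and Hspa1b stretches are the same in all 30 bases, at the same distance of 104 bases before the start.

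Total counts ran from 22875618 to 27849730 per library, and the members took 0.632% to 0.685% of them. Psmd14 itself was at 61.6 and 52.9 CPM in control replicates 1 and 2 and at 65.9 and 65.2 CPM in the knockout-labelled libraries (log2 fold change 0.20 ± 0.11 SE, edgeR adjusted p = 0.259). The RNA therefore does not show the deletion. Counts per gene from all cells of the tissue cannot test a deletion limited to the Pdx1-Cre lineage, so they do not speak against the label either. Every direction below is one between labels. CPM is the read count divided by a library total scaled with TMM, a factor that balances the libraries over most genes; 1 count was worth 0.0342 to 0.0455 CPM. The libraries differed in their cell types. Lymphocyte markers were higher in 13 of 13 cases (summed 125 to 174 CPM in controls, 1708 to 2095 CPM in the knockout-labelled libraries), and fat markers in 9 of 10 (398 to 834 and 2856 to 3704 CPM). Acinar markers were lower in 8 of 9 (2187 to 9966 and 184 to 536 CPM), duct markers in 8 of 9 (2566 to 3130 and 794 to 843 CPM) and fibroblast markers in 6 of 9 (26140 to 30200 and 9385 to 10790 CPM); macrophage markers were lower in 6 of 9 and islet markers in 4 of 8. No gene of these 7 lists was at 0 in all 4 libraries. Enterocyte markers reached 646 CPM in knockout replicate 2 and 7.92 to 29.4 CPM in the other libraries. In such bulk samples fewer cells of a type and less RNA per cell cannot be told apart, and the part of these cell types in the members' values was not tested.

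Most of the chaperone RNA differed little between the groups. edgeR's quasi-likelihood test with Benjamini-Hochberg adjustment over 19134 genes called 22.1% of all genes at an adjusted p under 0.05 (12.1% higher and 9.95% lower in the knockout-labelled libraries). Of the 75 members tested, 6 were higher (1 of them the pseudogene Hspd1-ps4), 5 were lower and 64 did not pass, so 14.7% were called. Hspd1-ps4 is counted in these numbers, although it passed the filter on low counts only through the knockout-labelled libraries. At an unadjusted p under 0.05, 20 members (26.7%) would count, against 38.4% of all genes. The median log2 fold change was −0.14 over the members and 0.00 over all genes. In 59 members, or 78.7%, the fitted change was under 1.5-fold, against 62.5% of all genes. In 51 members, or 68%, the whole 95% interval lay within 2-fold either way, against 48.9% of all genes. Both knockout-labelled libraries were above both controls in 13 members (17.3%; 34.4% of all genes) and below both in 26 (34.7%; 33.7% of all genes). Another 16 members were not tested for low counts: 10 had 0 counts in all libraries, none had more than 11 counts in a library, and 5 were protein-coding (Dnajb8, Dnajc5b, Dnajc5g, Hspb3 and Hspb9).

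**Figure D1:**
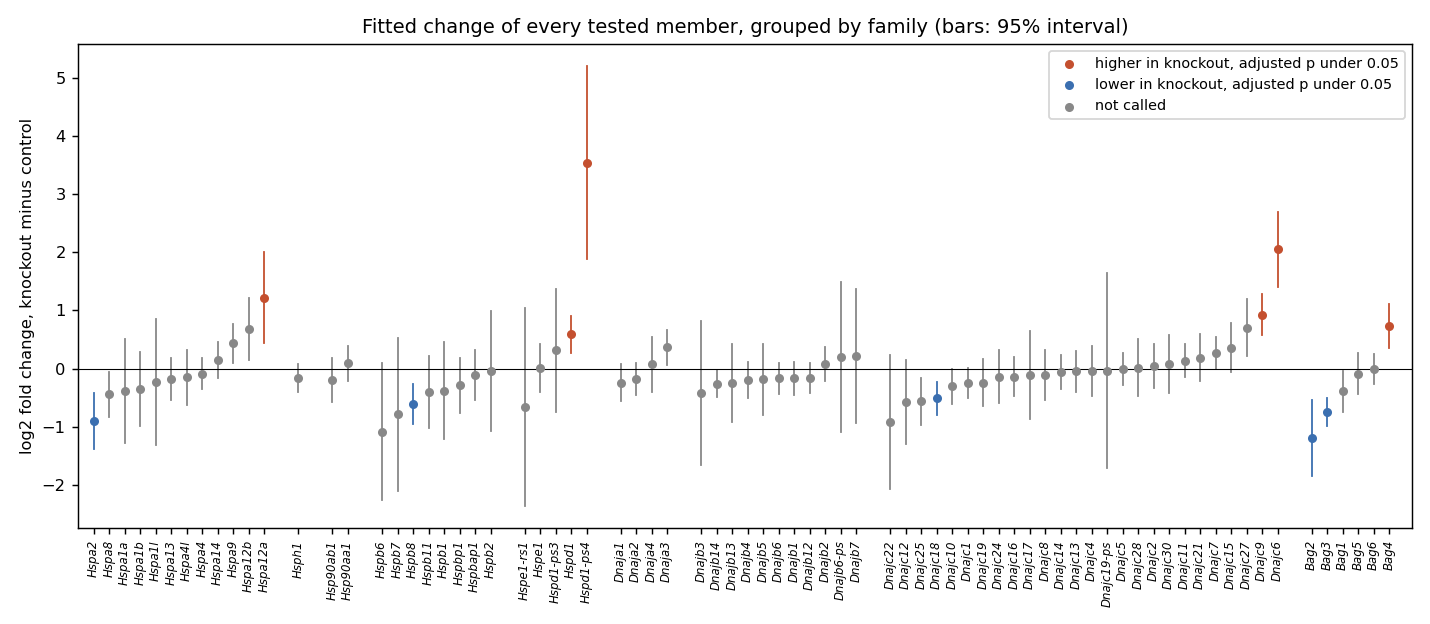
Fitted log2 fold change (vertical axis, knockout minus control) of each of the 75 tested members with its 95% interval, grouped by family along the horizontal axis; red and blue points passed an edgeR adjusted p of 0.05. Of the points, 50 lie under 0, and so do 9589 of all 19134 genes tested. The members' median log2 fold change is −0.14 here and −0.038 with libraries scaled by their totals alone. Among protein-coding members the largest called changes are at Dnajc6 and Hspa12a upward and at Bag2 downward. The pseudogene Hspd1-ps4 is also drawn, but it passed the filter on low counts only through the knockout-labelled libraries.

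Summed by family, the chaperone RNA shifted little. The Hspa family summed to 2061 and 1911 CPM in control replicates 1 and 2 and to 1663 and 1756 CPM in the knockout-labelled libraries. Hsp90a genes followed at 1791 and 1608 against 1503 and 1558 CPM, and Dnajc genes at 1419 and 1404 against 1390 and 1402 CPM. Bag genes were at 487 and 462 against 406 and 397 CPM, and Dnajb genes at 425 and 420 against 384 and 373 CPM. The Hspd1 and Hspe1 family was the one higher in both knockout-labelled libraries, at 224 and 189 against 262 and 292 CPM. Hspb genes stood at 241 and 280 against 215 and 148 CPM, the largest ratio downward (0.695). Its log2 ratio was −0.52, from −0.82 without knockout replicate 1 to −0.28 without knockout replicate 2. All families except Dnaja had groups that did not overlap, but with 2 libraries against 2 the two-sided exact permutation test cannot go below p = 0.33, which it gave for each of them (Dnaja p = 0.667). The log2 ratio of all 91 members together was −0.14, and it was −0.038 when libraries were scaled by their totals alone. With that scaling the sum of the Dnajc family was higher instead of lower, and the medians of the Dnajc, Dnaja and Hsp90a families turned positive; the Hspa, Hspb, Dnajb and Bag medians stayed negative.

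**Figure D2:**
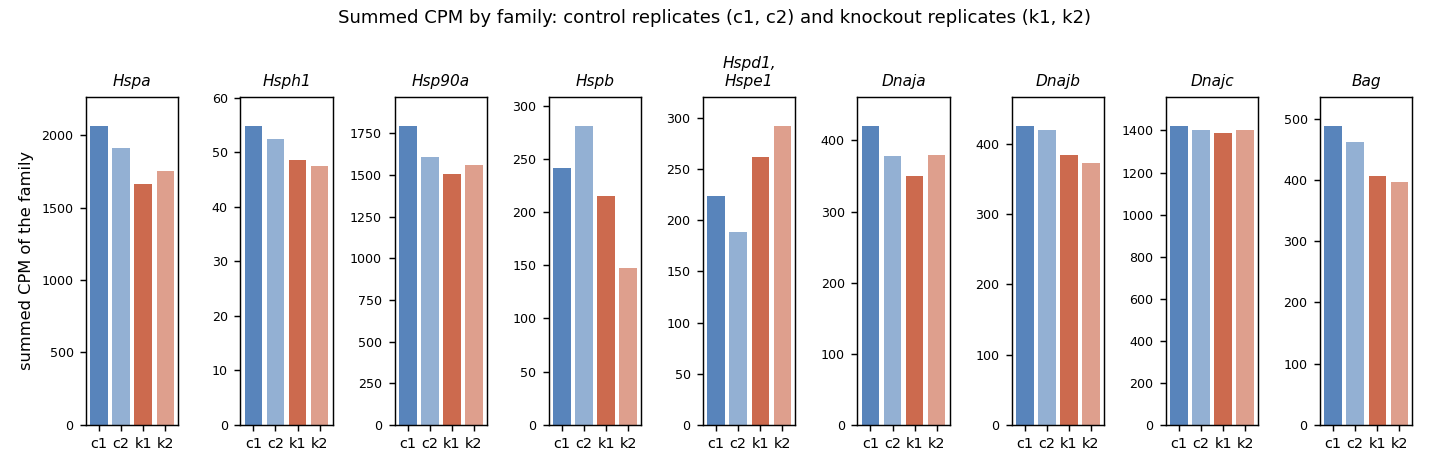
Summed CPM of each family (vertical axes from 0, one scale per panel) in control replicates 1 and 2 (c1, c2; blue) and knockout replicates 1 and 2 (k1, k2; red), 1 bar per library. The Hspd1 and Hspe1 panel is higher in k1 and k2 (262 and 292 CPM) than in c1 and c2, and the Hspb panel is lowest in k2 (148 CPM).

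The abundant Hsp70 and Hsp90 genes were somewhat lower or level. Hspa8, the constitutive cytosolic Hsp70, was at 1431 and 1272 CPM in controls and at 954 and 1039 CPM in the knockout-labelled libraries. The groups did not overlap, but the difference did not pass (log2 fold change −0.44 ± 0.15, edgeR adjusted p = 0.0974), while DESeq2 called it (adjusted p = 0.00817). Hsp90ab1, the constitutive Hsp90, was at 1518 and 1362 against 1231 and 1278 CPM (−0.20, 95% interval −0.58 to 0.18, edgeR adjusted p = 0.374). Hsp90aa1, its stress-inducible relative, was at 273 and 246 against 273 and 281 CPM, with overlapping groups (0.09, interval −0.21 to 0.40, edgeR adjusted p = 0.618). Per read count, Hsp90aa1 stood at 0.180 and 0.181 of Hsp90ab1 in controls and at 0.222 and 0.220 in the knockout-labelled libraries. Hsp90ab1 and Hspa8 together made up 39.3% to 41.4% of the members' CPM in controls and 35.1% to 36.5% in the knockout-labelled libraries.

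The level per length had the same leaders in both groups. In CPM per kilobase of exon, Hsp90ab1 stood first at 480 ± 36.7 in controls and 418 ± 11.1 in the knockout-labelled libraries (SD, n = 2 libraries). Hspa8 was next at 314 ± 26.1 and 232 ± 13.9, clear of Bag1, next in controls at 98.5 ± 16.1. Hspb1 (75.3 ± 3.05) and Hsp90aa1 (66.1 ± 4.87) followed in controls. Hspa9 (52.1 ± 3.96), Hspd1 (51.3 ± 4.09), Dnaja2 (49.5 ± 2.72) and Hspe1 (45.8 ± 9.48) came next and did not differ from each other beyond their spread. In the knockout-labelled libraries Hspd1 moved from rank 7 to rank 3, at 77.2 ± 6.14. These lengths count every annotated exon, so a gene with rare long transcripts appears lower than it is.

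Hspa1a and Hspa1b, the stress-inducible cytosolic Hsp70 genes, did not pass the test. Hspa1b had 393 and 520 counts in controls and 526 and 360 in the knockout-labelled libraries, or 17.9 and 21.8 against 18.8 and 12.3 CPM. Hspa1a was at 5.73 and 5.02 against 5.27 and 2.94 CPM. In both genes knockout replicate 1 lay among the controls and knockout replicate 2 was the lowest library. Their log2 fold changes were −0.35 (95% interval −0.98 to 0.29) and −0.39 (−1.29 to 0.51), with edgeR adjusted p = 0.362 and 0.465. The 2 genes share 47.1% of the 100-base stretches of Hspa1a transcripts, so the split of reads between them is uncertain, and their promoter elements shown above are the same. Together they had 0.0165 and 0.0210 of the reads of Hspa8 in controls and 0.0253 and 0.0147 in the knockout-labelled libraries. The treatment of multiply aligned reads is not given. Reads that fit both genes may have been dropped or counted to both, so these sums are uncertain too. Immediate early genes, which respond to handling of tissue, were at 734 to 801 CPM in controls and at 903 and 676 CPM in knockout replicates 1 and 2, with 2 of 11 lower.

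Dnajb1, the main J-domain partner of inducible Hsp70, was at 53.4 and 49.8 CPM in controls and at 48.2 and 43.7 CPM in the knockout-labelled libraries (−0.17, 95% interval −0.45 to 0.11, edgeR adjusted p = 0.320). Hsph1, the inducible Hsp110, was at 54.8 and 52.5 against 48.6 and 47.5 CPM (−0.16, interval −0.40 to 0.09, edgeR adjusted p = 0.287). Dnaja1, a farnesylated J-domain protein of the cytosol, was at 212 and 182 against 161 and 172 CPM (−0.24, interval −0.56 to 0.08, edgeR adjusted p = 0.218). In these 3 genes both knockout-labelled libraries lay below both controls, as in 33.7% of all genes, by less than the test could call. All 3 intervals lie within 2-fold. Among the 13 tested members with a 2-unit word in the table, 1 was higher and 0 were lower (12.1% and 9.95% of all genes), with a median log2 fold change of −0.19; the other members in the table had a median of −0.14.

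Bag3 had the smallest adjusted p among the lower members. Bag3 (GRCm38 chromosome 7, 128523616 to 128546981), a nucleotide exchange factor that directs clients to autophagy, was at 103.5 and 101 CPM in controls and at 63.9 and 58.0 CPM in the knockout-labelled libraries. Both knockout-labelled libraries were lower by a similar amount (−0.75 ± 0.10, edgeR adjusted p = 0.0101). Hspb8 (chromosome 5, 116408491 to 116422864), the small heat shock protein that binds Bag3, was at 79.2 and 83.8 against 59.1 and 47.3 CPM (−0.61 ± 0.14, edgeR adjusted p = 0.0342). Stub1, the ubiquitin ligase that works with this pair, was at 40.1 and 36.1 against 32.6 and 34.4 CPM and did not pass (edgeR adjusted p = 0.308). Leaving out control replicate 1 ended the call of Bag3 (−0.73). Such a fit leaves 1 library in a group, and each called fewer of all genes in total than the main fit. A call lost in one, here or below, is therefore not particular to that member. Hspb8 was called in just 1 of the 4 fits that leave out a library, the one without knockout replicate 1, with log2 fold changes from −0.79 to −0.46.

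The other Bag genes went both ways. Bag2 (chromosome 1, 33745484 to 33757795), an inhibitor of Stub1, was at 10.8 and 15.4 CPM in controls and at 6.30 and 5.17 CPM in the knockout-labelled libraries (−1.19 ± 0.26, edgeR adjusted p = 0.0320). Bag4 (chromosome 8, 25764538 to 25785287), known as a silencer of death domains, was at 13.6 and 15.0 against 22.5 and 25.1 CPM (0.73 ± 0.15, edgeR adjusted p = 0.0278). Bag6, which guards exposed membrane segments, was level at 173 and 181 against 177 and 177 CPM (interval −0.26 to 0.26). The count ratio of Bag3 to Bag6 was 0.597 and 0.557 in controls and 0.361 and 0.327 in the knockout-labelled libraries. Leaving out control replicate 1 or control replicate 2 ended the calls of Bag2 (edgeR adjusted p = 0.0650 and 0.0972) and Bag4 (0.108 and 0.0660), and so did leaving out knockout replicate 2 for Bag4 (0.0885). Exons of Bag2 and Bag4 overlap Gm37905 and Gm17484 on the other strand, so some reads could belong to those. The same limit holds for other named members. Among them, Hspa12a overlaps Eno4 and Dnaja1 overlaps Smu1 on the other strand, and Dnaja3 overlaps Vasn and Hspb6 overlaps Gm38670 on the same strand.

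**Figure D3:**
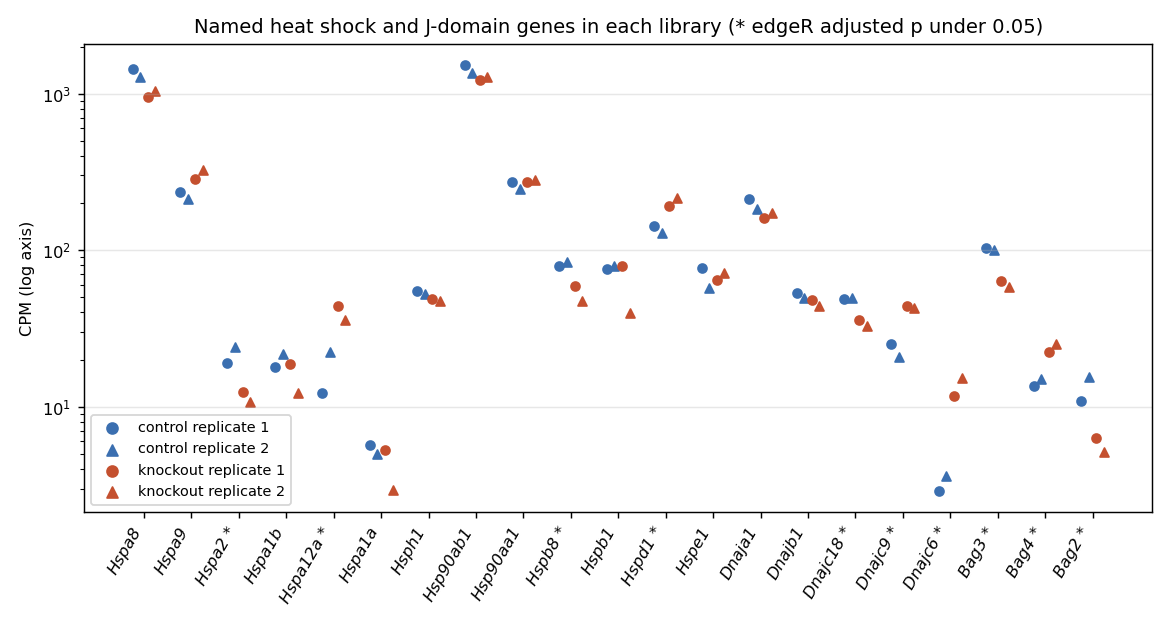
CPM (log axis) of 21 named members in each library: blue for control, red for knockout-labelled libraries, circles for replicate 1 and triangles for replicate 2. Stars mark an edgeR adjusted p under 0.05; Dnajc6 and Bag3 show wide gaps between the groups, while Hspa1a, Hspa1b, Hspb1, Hspe1 and Hsp90aa1 overlap.

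Other small heat shock genes varied widely between libraries of 1 group. Hspb1, which caps actin and holds unfolded clients, was at 75.4 and 79.8 CPM in controls, at 79.8 CPM in knockout replicate 1 and at 39.4 CPM in knockout replicate 2. The fitted change was −0.38 ± 0.33 (edgeR adjusted p = 0.441). Leaving out knockout replicate 2 gave 0.04, and leaving out knockout replicate 1 gave −0.98 (edgeR adjusted p = 0.00239), so knockout replicate 2 sets its direction. Hspb6 and Hspb7, small heat shock genes of muscle, were chosen after their values were seen. Hspb6 was at 15.7 and 39.4 against 15.3 and 10.7 CPM, and Hspb7 at 18.1 and 33.8 against 21.7 and 8.52 CPM; control replicate 2 was highest and knockout replicate 2 lowest for both. Neither passed (log2 fold changes −1.08 and −0.78, edgeR adjusted p = 0.153 and 0.323). Without knockout replicate 1 both were lower (−1.36 and −1.61, edgeR adjusted p = 0.0193 and 0.00211). Without control replicate 2 they were at −0.27 and −0.26 (edgeR adjusted p = 0.528 and 0.790), and Hspb7 was at −0.26 without knockout replicate 2 (edgeR adjusted p = 0.654). The lens and muscle crystallin Cryab, outside the families, was at 51.2 and 62.1 against 40.0 and 25.6 CPM (−0.79 ± 0.24, edgeR adjusted p = 0.0744).

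Of 12 smooth muscle markers, 8 also were highest in control replicate 2 and lowest in knockout replicate 2, while Synpo2, Notch3, Lmod1 and Tagln were highest in knockout replicate 1 and lowest in control replicate 1. The 12 summed to 2044 and 4808 CPM in control replicates 1 and 2 and to 2951 and 1654 CPM in knockout replicates 1 and 2, with 0 of 12 called by edgeR, 1 by DESeq2, 1 at an unadjusted p under 0.05 and none at 0. The smooth muscle myosin Myh11 was at 424, 1274, 725.5 and 397 CPM in that order, and the actin-binding Synpo2 at 57.6, 154, 273 and 121 CPM. Skeletal muscle markers summed to 13.8 to 23.8 CPM in all, with Myh4 at 0 counts in every library, Acta1 and Mylpf higher and 4 of 6 tested not passing. The part of smooth muscle in the Hspb values was not tested. Bag3 was highest in control replicate 1 and Hspb8 in control replicate 2, and both were lowest in knockout replicate 2.

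**Figure D4:**
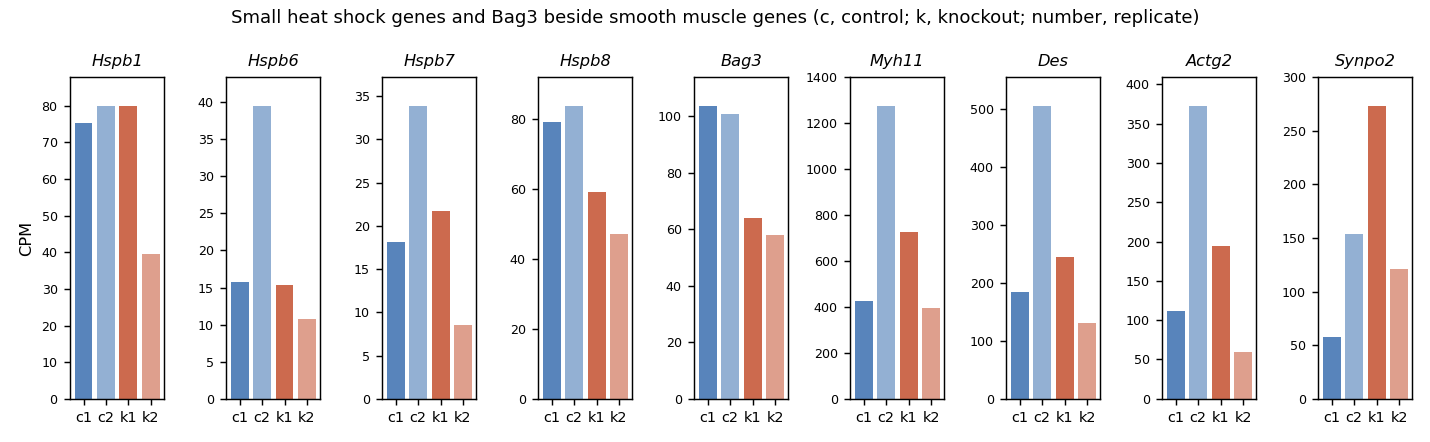
CPM (vertical axes from 0, one scale per panel) of 4 small heat shock genes, Bag3 and 4 smooth muscle genes in control (c, blue) and knockout (k, red) replicates 1 and 2, 1 bar per library. Hspb6 and Hspb7 peak in c2, as do Myh11, Des and Actg2 of the 8 markers with that order, while Synpo2 of the other 4 peaks in k1.

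The mitochondrial chaperonin was split. Hspd1 (chromosome 1, 55077835 to 55088243, minus strand), the folding chamber subunit, was at 143 and 128 CPM in controls and at 192 and 215 CPM in the knockout-labelled libraries (0.59 ± 0.12, edgeR adjusted p = 0.0298). Hspe1 (chromosome 1, 55088132 to 55091307, plus strand), its lid subunit, was at 77.5 and 57.7 against 64.6 and 71.3 CPM, with overlapping groups (0.01, 95% interval −0.41 to 0.43, edgeR adjusted p = 0.977). The 2 genes start within the same short region and share the 4-unit element shown above. Their exons overlap in the annotation, so reads there could be counted to either if strand was not used, and the strand setting is unknown here. The count ratio of Hspd1 to Hspe1 was 1.85 and 2.22 in controls and 2.98 and 3.02 in the knockout-labelled libraries. The call of Hspd1 was lost on leaving out any 1 of the 4 libraries (edgeR adjusted p = 0.0506 to 0.152), with log2 fold changes from 0.51 to 0.67.

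Other mitochondrial chaperone genes moved in either direction. Hspa9, the mitochondrial Hsp70, was at 237 and 212 CPM in controls and at 284 and 324 CPM in the knockout-labelled libraries, and it did not pass (0.44 ± 0.13, edgeR adjusted p = 0.0742; DESeq2 adjusted p = 0.0136). Dnaja3, its J-domain partner, chosen after its values were seen, was at 44.4 and 42.6 against 51.9 and 60.4 CPM (0.37 ± 0.12, edgeR adjusted p = 0.0836). Of 10 other mitochondrial chaperones and proteases 1 was higher, 0 were lower and 9 did not pass. Of all genes 12.1% were higher and 9.95% lower. The gene called was Trap1, the mitochondrial Hsp90, at 67.0 and 70.0 against 106 and 104 CPM (0.62 ± 0.09, edgeR adjusted p = 0.0128). The list's median was 0.07. From the co-chaperone list given below, the mitochondrial nucleotide exchange factor Grpel2 was lower (−0.49 ± 0.11, edgeR adjusted p = 0.0404). Grpel1 of that list did not pass (0.10 ± 0.14, edgeR adjusted p = 0.652).

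One called feature was a pseudogene. Hspd1-ps4 (chromosome 4, 106136111 to 106137778) had 2 and 4 counts in controls and 59 and 30 in the knockout-labelled libraries, and was named after its values were seen. It is 1 of the 6 members counted as higher, and its interval is drawn in the figure of all tested members. Hspd1-ps4 passed the filter on low counts only through the knockout-labelled libraries, and a filter on mean CPM left it out. Its p is therefore not printed, and its call is no support. Of its 50-base stretches 0.679% occur in annotated Hspd1 transcripts and of its 100-base stretches 0%.

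J-domain genes of the Dnajc family gave the largest rise of a protein-coding member. Dnajc6 (chromosome 4, 101496648 to 101642799), auxilin, which recruits Hsp70 to strip clathrin from vesicles, was at 2.91 and 3.6 CPM in controls and at 11.7 and 15.3 CPM in the knockout-labelled libraries. The gap is wide in both libraries (2.05 ± 0.25, edgeR adjusted p = 0.00876), although without control replicate 1 it did not pass (1.91, edgeR adjusted p = 0.0639). Schwann and neuronal markers, relevant since auxilin is rich in neurons, summed to 129 and 158 against 187.5 and 267 CPM with 3 of 8 higher and none at 0; their part was not tested. Dnajc9 (chromosome 14, 20384638 to 20388910), a J-domain chaperone of histones H3 and H4, was at 25.0 and 20.8 against 43.9 and 43.0 CPM (0.92 ± 0.14, edgeR adjusted p = 0.0138). Dnajc9 was the 1 member called in all 4 fits that leave out a library. Dnajc18, a J-domain protein of the ER membrane, was at 48.4 and 49.6 against 35.9 and 32.8 CPM (−0.51 ± 0.11, edgeR adjusted p = 0.0323); its call was lost on leaving out any 1 library (edgeR adjusted p = 0.0783 to 0.197). The remaining 23 tested Dnajc members did not pass, nor did any of 11 Dnajb and 4 Dnaja members. Of all genes 22.1% were called. By unadjusted p under 0.05, 1 Dnajb and 1 Dnaja member would count, and DESeq2 and limma-voom also called none in these 2 families. Dnajb6, a suppressor of aggregation whose window holds a 3-unit word, was at 119 and 108 against 97.3 and 105 CPM (−0.17, interval −0.44 to 0.10).

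The less typical Hsp70 genes moved in opposite directions. Hspa12a (chromosome 19, 58795750 to 58943654), a distant relative of Hsp70, was at 12.2 and 22.2 CPM in controls and at 44.2 and 36.0 CPM in the knockout-labelled libraries (1.22 ± 0.31, edgeR adjusted p = 0.0470). Control replicate 1 was the lowest library, and without it the change was 0.85 (edgeR adjusted p = 0.0898). Hspa2 (chromosome 12, 76404176 to 76406938), an Hsp70 known from the testis, was at 19.0 and 24 against 12.4 and 10.7 CPM (−0.89 ± 0.19, edgeR adjusted p = 0.0308). Hspa2 was called without knockout replicate 1 and in none of the other 3 fits that leave out a library. DESeq2 added 5 members to the 11 that edgeR called, Hspa8 lower, Dnajc25 lower, and Hspa9, Hspa12b and Dnajc27 higher. That made 9 higher and 7 lower of 75 members. Over all 19134 genes DESeq2 also called more, 2865 higher and 2447 lower, against 2320 and 1904 by edgeR.

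None of 7 listed heat shock factors and binding proteins was called by edgeR, DESeq2 or limma-voom. Their median log2 fold change was −0.36, and 2 had an unadjusted p under 0.05. Over all genes edgeR called 22.1%, and 38.4% had an unadjusted p under 0.05, so 7 genes are too few to read a lack of calls. Hsf1, the main activator, was at 41.6 and 39.0 CPM in controls and at 44.8 and 42.9 CPM in the knockout-labelled libraries (0.12 ± 0.11, edgeR adjusted p = 0.448). Among 30 Hsp90 and Hsp70 co-chaperones 1 was higher, 2 were lower and 27 did not pass, with a median of −0.12. Of all genes 12.1% were higher and 9.95% lower. Unc45b, a myosin chaperone of striated muscle, rose (0.90 ± 0.21, edgeR adjusted p = 0.0412), at 6.64 and 8.87 against 15.3 and 13.7 CPM. Of 6 skeletal muscle markers Acta1 and Mylpf rose, while Ckm was at 2.64 and 9.37 against 1.90 and 1.09 CPM, and the summed markers overlapped between groups with a median log2 fold change of 0.03; their part was not tested. Fnip1, a folliculin partner that slows Hsp90, was lower (−0.41 ± 0.09, edgeR adjusted p = 0.0357). Grpel2, a mitochondrial nucleotide exchange factor, was lower too (−0.49 ± 0.11, edgeR adjusted p = 0.0404). Of 17 TRiC chaperonin and prefoldin genes edgeR and limma-voom called 0 and DESeq2 called 1 (median −0.13). By unadjusted p under 0.05, 1 would count. The shares of all genes were 22.1% by edgeR and 38.4% by unadjusted p.

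Another list held 11 genes outside the chaperone families that heat shock factor 1 is known to act on, or that commonly rise with it. Of these, 3 fell and 8 did not pass (median −0.43), while 9.95% of all genes were lower. Serpinh1, the collagen chaperone, fell most, from 774 and 855 to 400 and 293 CPM (−1.23 ± 0.19, edgeR adjusted p = 0.0154), in libraries where 6 of 9 fibroblast markers also were lower. Metallothionein Mt1 was at 139 and 98.9 against 67.6 and 59.1 CPM (−0.91 ± 0.19, edgeR adjusted p = 0.0290), and Rgs2, a brake on G protein signalling, at 94.1 and 75.4 against 46.5 and 59.1 CPM (−0.68 ± 0.17, edgeR adjusted p = 0.0469). The part of fibroblast or other cell content in these falls was not tested.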

How the data were processed

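The authors deposited raw read counts by gene symbol, 1 file per library, with no normalisation. The submitters' processing notes list the build GRCm38, the aligner STAR 2.7.6a, the counter featureCounts 2.0.1, and also SAMtools 1.7, Trim Galore 0.6.6 and FastQC 0.11.9. Not given in the sources used here: annotation release, strand setting and treatment of multiply aligned reads. Groups and replicate numbers came from sample titles. Gene types, coordinates and exon lengths came from GENCODE M21 (GRCm38), which held 53292 of 55291 symbols.

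All genes were fitted with edgeR 4.0.16 in R 4.3.3: filterByExpr, TMM factors (0.962 to 1.05), quasi-likelihood F test of group without covariates, and an adjusted p under 0.05. SE is the log2 fold change over the square root of F. The steps were tested on simulated data. Intervals are 95%. Members and lists were chosen with earlier results of these data known. Text names 13 fixed members, and in 6 families up to 4 called members per direction by p (6 for Dnajc). It also names up to 3 called genes per list and direction. Others were named outside this rule, and not all are marked. Unmarked ones include Bag1, Bag6, Dnaja2, Dnajb6, Stub1, Hsf1, Grpel1 and Cryab. Same-numbered libraries were not paired in the main test. Alternatives were other scalings and filters, DESeq2 1.42.0, limma-voom 3.58.1, a replicate block and leaving out each library.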

Additional observations from a re-analysis of the deposited data

How the results depend on the processing

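The 6 higher and 5 lower members were called again, in the same direction, under DESeq2 size factors, upper-quartile scaling, library totals, no low-count filter, DESeq2's test and limma-voom. With a filter on mean CPM 9 of the 11 were. The 6 include Hspd1-ps4, whose repeated call is no support, since it passed the low-count filter only through the knockout-labelled libraries. Leaving out a library gave 1 to 5 higher and 0 to 7 lower members, with medians from −0.18 to −0.094; without control replicate 1, 1 member (Dnajc9) was called, and without control replicate 2, 3 higher and 2 lower. The log2 fold changes of named members that were called kept their sign. With the replicate block, 3 members were lower and 5 higher. Same-numbered libraries did not deviate together (correlation 0.0282). With 2 libraries per group that value cannot exclude a shared preparation, and the sample titles name no pairing beyond the number. Scaling by totals moved the median of all genes from 0.00 to 0.10, the members' median to −0.038, and the log2 ratios of summed CPM to −0.14 (Bag), −0.062 (Dnajb), −0.12 (Hspa), 0.083 (Dnajc), −0.061 (Hsph1), −0.031 (Dnaja), −0.052 (Hsp90a) and −0.038 (all members). The sign turned for Hspe1 without control replicate 2 (−0.19) or knockout replicate 2 (−0.063) and for Hspb1 without knockout replicate 2 (0.042), over ranges of −0.19 to 0.24 and −0.98 to 0.042; no value of opposite sign was called. The cause was not tested. Of the values of named members under other settings 219 kept side and direction, 26 no longer passed, 4 newly passed and 3 changed sign. Depth limits members under about 1 CPM, where 1 count is 0.0342 to 0.0455 CPM.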
